A study of Homo sapiens with 9 samples.

Results

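The decision of a germinal centre B cell to stay in the reaction or to become a plasma cell is held by a small circuit of transcription factors. In BL2 cells, an established human Burkitt lymphoma line, 10 genes of this circuit (BCL6, PRDM1, XBP1, PAX5, BACH2, ELL2, SPIB, SPI1, POU2AF1 and EBF1) were followed through every probe set whose annotation names that gene alone. This gave 25 probe sets of the 54613 tested, and 10 of 19775 named genes. The cells were stimulated for 6 hrs with 200 ng/ml recombinant human CD40L, stimulated for 6 hrs with 1 μM LPS from E. coli, or left without stimulus as control, in RPMI with foetal calf serum. No time in culture is given for the controls, so in contrasts against control it cannot be told apart from the stimulus. Each of 3 batches supplied 1 array (HG-U133 Plus 2.0) per condition, which makes 9 arrays. The study describes the batches as independent biological experiments. BL2 is a single transformed line, so the arrays replicate the stimulation and not the donor.

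As background, BCL6 is a zinc finger repressor that keeps the germinal centre programme running and holds PRDM1 silent. PRDM1 (Blimp-1) represses BCL6 and PAX5 in turn and starts plasma cell differentiation, XBP1 expands the secretory apparatus, and ELL2 is an elongation factor that favours the processing of immunoglobulin mRNA towards its secreted form. PAX5 and EBF1 maintain B cell identity, BACH2 represses PRDM1, SPIB and SPI1 (PU.1) are Ets factors, and POU2AF1 (OCA-B) is the coactivator of the octamer factors. CD40L is the signal of helper T cells to the receptor CD40, and LPS is a bacterial ligand of TLR4.

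After CD40L, ELL2 rose most, on 3 of its 4 probe sets, SPIB rose on both and PRDM1 on 1 of 3. BCL6 fell on 2 of 3 probe sets, EBF1 on 3 of 4 and BACH2 on 1 of 2. A probe set was called higher or lower where the p-value of limma, adjusted over all 54613 probe sets after Benjamini and Hochberg, was at most 0.05. Changes are log2 fold changes with the standard error (SE) of the fit. In CD40L minus control, 6 of the 25 probe sets were called higher (24%, against 3.71% of all probe sets) and 6 lower (24%, against 1.87%). Their median log2 fold change was 0.01 and that of all probe sets 0.0050. Probe sets of 1 gene are not independent of each other, and the 12 calls came from 3 genes higher and 3 genes lower. In LPS minus control, 2 were called higher (8%, against 1.17%), both of ELL2, and 4 lower (16%, against 0.892%), of BCL6, POU2AF1 and EBF1. Their median was −0.03 and that of all probe sets 0.0029. In CD40L minus LPS, 4 were called higher (16%, against 0.300%), 3 of ELL2 and 1 of POU2AF1, and 0 lower (0%, against 0.0952%). XBP1, PAX5 and SPI1 had no call in any of the 3 contrasts. Both contrasts against control use the same 3 control arrays, so they are not independent of each other. These genes were chosen with earlier results of these data known. Of the 25 probe sets, 19 averaged above the median probe set. Brighter probe sets were called more often. With those below the median left out, 5 were called higher and 6 lower after CD40L, against 1991 and 976 of all 27306. After LPS 2 and 4 were called, against 577 and 443. In CD40L minus LPS it was 4 and 0, against 139 and 42.

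**Figure D1:**
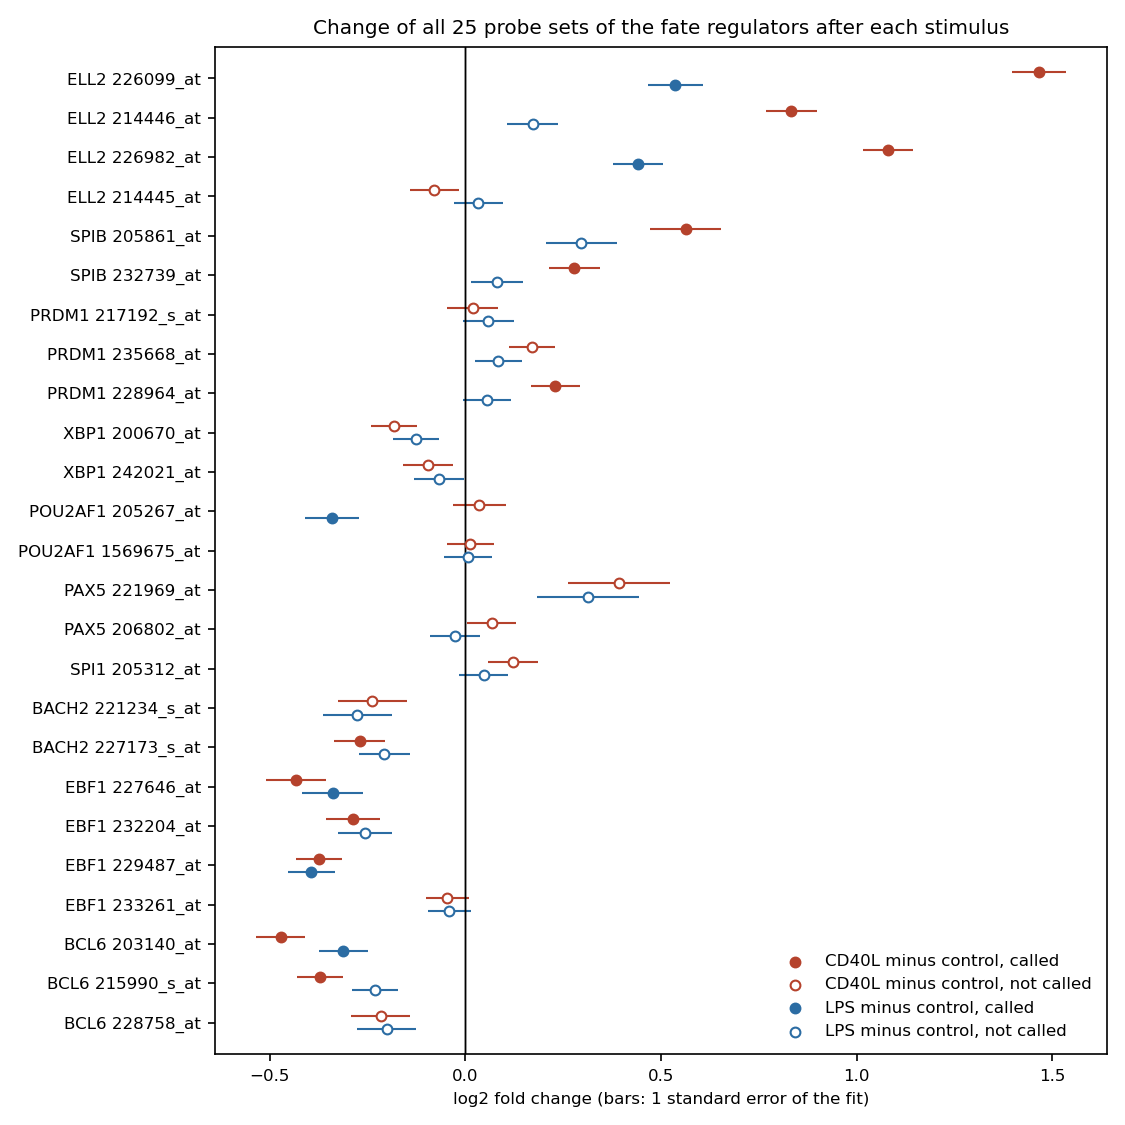
Log2 fold change (horizontal axis) of each of the 25 probe sets (rows, by gene and then by mean level) in CD40L minus control (red) and LPS minus control (blue), with bars of 1 standard error and filled points for called probe sets. ELL2 226099_at lies farthest to the right at 1.47 after CD40L and 0.54 after LPS, and BCL6 203140_at farthest to the left after CD40L at −0.47.

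The 9 arrays were alike in scale. Array medians lay between 6.42 and 6.47 on the deposited log2 scale, all values between 5.46 and 14.81, and replicates correlated at 0.994 to 0.997 across probe sets. The cells carried B cell markers at high level: of CD79A, CD79B, CD22, BLK and MS4A1, none lay below the median of the arrays. Their mean level was 10.33 to 10.40 on CD40L arrays, 10.39 to 10.59 on LPS arrays and 10.66 to 10.75 on control arrays. Of these 5, 4 fell after CD40L (CD79A, CD79B, CD22 and BLK) and 2 after LPS (CD79A and BLK). With 1 array or batch left out, 3 to 4 were called after CD40L and 1 to 3 after LPS. Their part in the changes of the regulators was not tested. T and NK cell markers (0 of 11) and monocyte and macrophage markers (0 of 10) had no call in any contrast by their brightest probe sets, and their means stayed between 6.43 and 6.50 and between 6.13 and 6.20. By the most changed probe set, 1 T and NK cell marker was called higher after CD40L and 0 monocyte and macrophage markers. Of 6 plasma cell markers 0 were called in any contrast, and SDC1 and SLAMF7 averaged below the median of the arrays. The others were above it already without stimulus: JCHAIN averaged 12.77, TNFRSF17 11.03, MZB1 9.92 and DERL3 7.24 on control arrays. In bulk RNA, fewer cells that express a gene and less RNA of it per cell cannot be told apart.

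Of the receptors, CD40 averaged 8.92 on CD40L arrays and 8.95 on control arrays and had no call. TLR4, low but above the median of all probe set means (6.45), averaged 7.10 on CD40L, 7.25 on LPS and 7.35 on control arrays. It was lower after CD40L (log2 fold change −0.26, adjusted p = 0.0423) and had no call after LPS. CD14 was below the median of the arrays. LY96 (MD-2) was near the median of all probe set means, at 6.49 on CD40L, 6.46 on LPS and 6.58 on control arrays.

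BCL6, the repressor at the top of the circuit, was lower after both stimuli on its brightest probe set, 203140_at. Its log2 levels in batches 1, 2 and 3 were 10.77, 10.83 and 10.80 on CD40L arrays, 11.05, 10.86 and 10.98 on LPS arrays, and 11.23, 11.21 and 11.38 on control arrays. All 3 CD40L arrays lay below all LPS arrays, and all LPS arrays below all control arrays. CD40L minus control was −0.47 on the log2 scale (SE 0.06, adjusted p = 0.00021), a level 0.721 times that of control, and LPS minus control −0.31 (SE 0.06, adjusted p = 0.0144). The step between the stimuli was −0.16 for CD40L minus LPS (95% interval −0.29 to −0.03) and missed the threshold (adjusted p = 0.827). The CD40L call held in all 20 alternative analyses. The LPS call was lost without batch 1 or batch 3 and without LPS array 2, LPS array 3 or control array 3, where the log2 fold change was −0.38 to −0.26 and the adjusted p 0.0599 to 0.209. Without the batch term its adjusted p was 0.0566.

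The second probe set of BCL6, 215990_s_at, moved the same way after CD40L. It read 9.20, 9.02 and 8.92 on CD40L arrays, 9.39, 9.13 and 9.04 on LPS arrays, and 9.62, 9.27 and 9.37 on control arrays. The CD40L arrays did not reach the control arrays, and the LPS arrays overlapped them. The log2 fold changes were −0.37 after CD40L (SE 0.06, adjusted p = 0.00101) and −0.23 after LPS (SE 0.06, adjusted p = 0.0577). Without the batch term, the CD40L value had an adjusted p of 0.102. The dimmest probe set, 228758_at, had −0.22 after CD40L (adjusted p = 0.129) and −0.20 after LPS (adjusted p = 0.258), with no call. Without control array 2 these were −0.29 and −0.27 and were called (adjusted p = 0.0158 and 0.046), as was 215990_s_at after LPS, at −0.28 (adjusted p = 0.0127). Across the 9 arrays, after batch means were removed, the 3 probe sets correlated with each other at 0.75 to 0.97, as a description.

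BCL6 is known to bind and repress its own gene, and BACH2 to bind the gene of PRDM1, so the promoters of BCL6 and PRDM1 are shown, as the 250 bases before each start that RefSeq gives (build GRCh38.p14, gene strand, 5′ to 3′). Capitals mark matches on either strand to 6 motifs: the core TTCCNNGAA that BCL6 shares with STAT factors, the core TGANTCA of AP-1 and BACH factors, the Ets motif GAGGAAG, the octamer ATGCAAAT, the NF-κB motif GGGANNTTCC and the EBF1 motif TCCCNNGGGA. The motifs do not overlap in the capitals below. The 2 starts of BCL6 lie on the minus strand at chr3:187745469-187745718 and chr3:187736502-187736751, and those of PRDM1 on the plus strand at chr6:106086086-106086335 and chr6:106098691-106098940.
BCL6, start 1: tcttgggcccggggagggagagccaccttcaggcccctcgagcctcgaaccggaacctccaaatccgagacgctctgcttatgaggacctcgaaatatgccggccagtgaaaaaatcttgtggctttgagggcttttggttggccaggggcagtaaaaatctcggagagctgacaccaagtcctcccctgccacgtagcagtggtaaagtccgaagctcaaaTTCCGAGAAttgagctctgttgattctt
BCL6, start 2: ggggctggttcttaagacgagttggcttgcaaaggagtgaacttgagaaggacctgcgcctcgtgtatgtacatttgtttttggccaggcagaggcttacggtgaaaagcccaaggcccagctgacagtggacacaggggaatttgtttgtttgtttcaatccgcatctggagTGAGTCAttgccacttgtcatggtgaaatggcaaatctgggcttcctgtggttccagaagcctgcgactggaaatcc
PRDM1, start 1: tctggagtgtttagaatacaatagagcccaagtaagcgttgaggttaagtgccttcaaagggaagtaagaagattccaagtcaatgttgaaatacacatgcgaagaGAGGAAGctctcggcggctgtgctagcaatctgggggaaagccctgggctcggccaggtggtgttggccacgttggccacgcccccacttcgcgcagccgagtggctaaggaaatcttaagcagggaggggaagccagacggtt
PRDM1, start 2: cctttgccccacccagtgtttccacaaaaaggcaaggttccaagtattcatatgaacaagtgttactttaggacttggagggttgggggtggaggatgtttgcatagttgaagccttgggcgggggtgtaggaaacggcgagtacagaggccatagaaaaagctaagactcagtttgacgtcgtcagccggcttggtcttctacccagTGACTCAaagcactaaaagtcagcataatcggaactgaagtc

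The window before the first start of BCL6 holds TTCCGAGAA, a match to the BCL6 and STAT core, at −28 to −20 from the start. That before its second start holds TGAGTCA, a match to the AP-1 and BACH core, at −77 to −71. The second start of PRDM1 has TGACTCA at −42 to −36, and the first has GAGGAAG at −144 to −138. Among all 35116 promoter windows of this length, 3.86% hold the BCL6 and STAT core, 6.57% the AP-1 and BACH core and 11.25% the Ets motif. Windows were found for 7 of the 10 genes, with 10 starts in all, and not for ELL2, SPI1 and POU2AF1. The octamer (1.63% of all windows), the NF-κB motif (1.4%) and the EBF1 motif (1.06%) were in 0 of these 10. A match of letters is a description of the window and shows no binding.

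PRDM1, the plasma cell repressor, had a low level and a small change. Its 3 probe sets had group means between 6.32 and 7.11, near the median of all probe set means (6.45). On 228964_at it read 6.49, 6.62 and 6.55 on CD40L arrays, 6.38, 6.32 and 6.43 on LPS arrays, and 6.395, 6.31 and 6.26 on control arrays. The CD40L arrays lay above all others, and the LPS and control arrays overlapped. After CD40L the log2 fold change was 0.23 (SE 0.06, adjusted p = 0.0399) and 0.06 after LPS (adjusted p = 0.855). The difference CD40L minus LPS was 0.17 (95% interval 0.04 to 0.31, adjusted p = 0.695).

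Of the 22 calls over the 3 contrasts, that of PRDM1 was lost most often, in 12 of the 19 alternatives that tested it, among them the removal of any 1 batch, of CD40L array 2 or 3, of LPS array 1 or 3, or of control array 2 or 3, where the log2 fold change was 0.18 to 0.30 and the adjusted p 0.0529 to 0.268. Probe set 235668_at had 0.17 after CD40L with no overlap of CD40L and control arrays (adjusted p = 0.131). Probe set 217192_s_at had 0.02 (adjusted p = 0.948), with opposite signs between batches. The generalised log2 scale is flat near the floor of the arrays, so a change of a dim gene is understated.

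XBP1, which builds the secretory apparatus, was dim on both probe sets, below the median of all probe set means. Probe set 200670_at read 6.28, 6.23 and 6.31 on CD40L arrays, 6.25, 6.401 and 6.34 on LPS arrays, and 6.39, 6.52 and 6.47 on control arrays. The CD40L arrays lay below the control arrays by a log2 fold change of −0.18 (95% interval −0.31 to −0.06) that missed the threshold (adjusted p = 0.0899). After LPS it was −0.13 (95% interval −0.25 to −0.0031, adjusted p = 0.411). Probe set 242021_at had −0.10 and −0.07 (adjusted p = 0.558 and 0.806). The splicing that activates XBP1 was not measured by these values.

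ELL2, the elongation factor of antibody secreting cells, showed the largest change of the 10 genes and a graded one. On 226099_at it read 8.71, 9.08 and 8.85 on CD40L arrays, 7.98, 8.06 and 7.81 on LPS arrays, and 7.42, 7.45 and 7.37 on control arrays. The 3 conditions did not overlap, in the order CD40L, LPS, control, and each step was called. After CD40L the log2 fold change was 1.47 (SE 0.07, adjusted p = 8.72e-09), a level 2.77 times that of control, and 0.54 after LPS (SE 0.07, adjusted p = 0.00056), 1.45 times that of control. CD40L minus LPS was 0.93 (95% interval 0.78 to 1.08, adjusted p = 7.55e-06). Within batches 1, 2 and 3 that difference was 0.73, 1.02 and 1.04.

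A second probe set of ELL2, 226982_at, gave the same order. It read 7.39, 7.68 and 7.67 on CD40L arrays, 6.91, 6.92 and 7.002 on LPS arrays, and 6.42, 6.60 and 6.48 on control arrays. The log2 fold changes were 1.08 after CD40L (adjusted p = 7.83e-08), 0.44 after LPS (adjusted p = 0.00146) and 0.64 for CD40L minus LPS (adjusted p = 9.83e-05). The LPS value was 0.40 without batch 3, with an adjusted p of 0.0709. Probe set 214446_at rose after CD40L and missed the threshold after LPS. It read 7.83, 7.76 and 7.63 on CD40L arrays, 7.20, 7.12 and 6.92 on LPS arrays, and 6.85, 6.96 and 6.91 on control arrays. The values were 0.83 after CD40L (adjusted p = 8.44e-07), 0.17 after LPS (adjusted p = 0.264) and 0.66 for CD40L minus LPS (adjusted p = 9.06e-05). The CD40L calls of these 3 probe sets, and their calls in CD40L minus LPS, held in all 20 alternatives.

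The fourth probe set of ELL2, 214445_at, did not follow the others. Its group means were 6.06 on CD40L arrays, 6.17 on LPS arrays and 6.14 on control arrays, below the median of all probe sets, and the contrasts were −0.08 for CD40L (adjusted p = 0.651) and 0.03 for LPS (adjusted p = 0.929). Its lowest correlation with another ELL2 probe set over the 9 arrays was −0.606, while the highest between any pair of the 4 was 0.991.

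**Figure D2:**
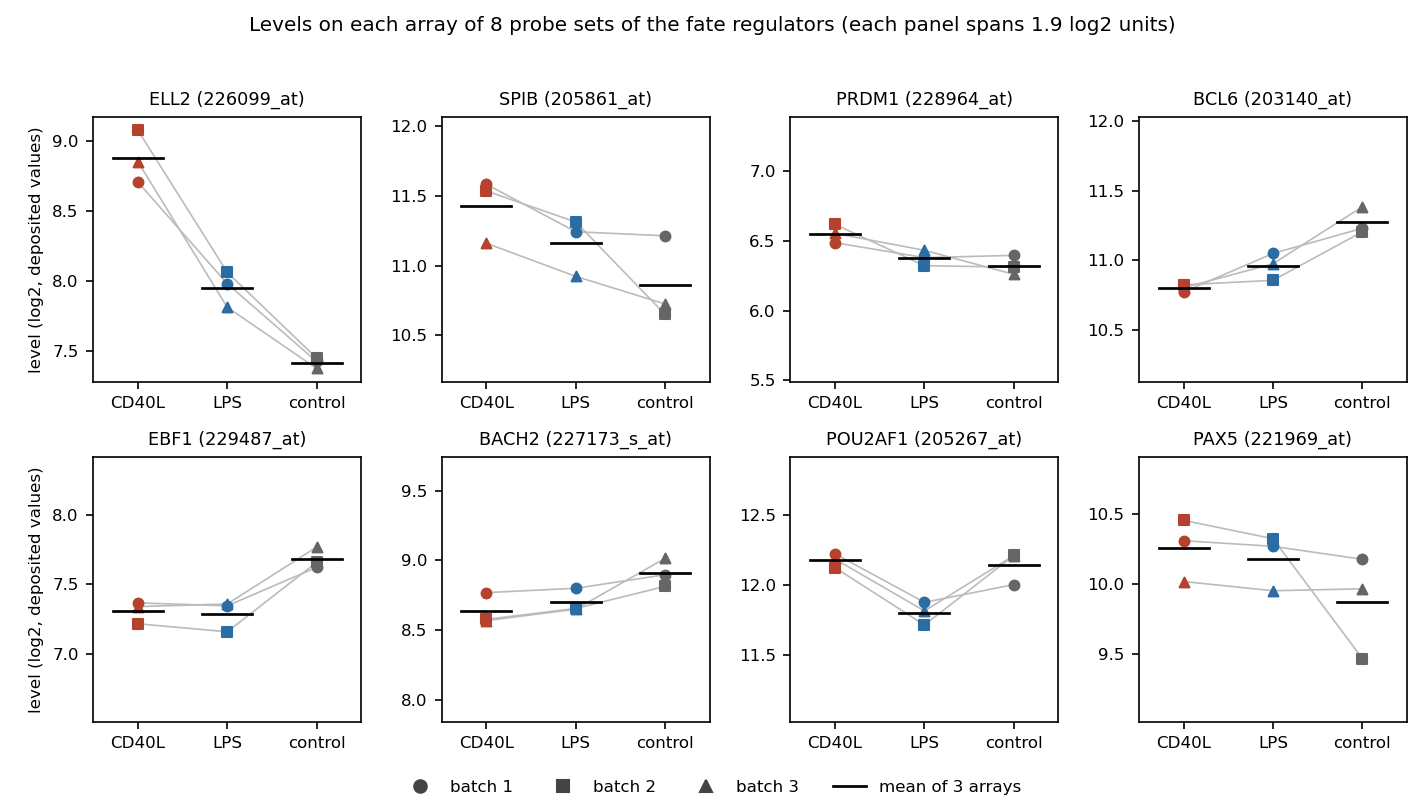
Deposited log2 level (vertical axis, the same span in each panel) of 8 probe sets on the 9 arrays, by condition (CD40L, LPS, control). Symbols mark batches 1 to 3, grey lines join arrays of a batch and black bars are means of 3 arrays. ELL2 226099_at separates all 3 conditions, BCL6 203140_at and EBF1 229487_at lie lower on CD40L and LPS arrays than on control arrays, POU2AF1 205267_at is low on LPS arrays alone, and the PAX5 difference comes with 1 control array at 9.47.

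SPIB, an Ets factor that is high in germinal centre B cells, rose after CD40L on both probe sets. On 205861_at it read 11.58, 11.54 and 11.16 on CD40L arrays, 11.24, 11.31 and 10.92 on LPS arrays, and 11.21, 10.65 and 10.73 on control arrays. The CD40L and control arrays overlapped across batches, because CD40L array 3 lay below control array 1, but within each batch CD40L was higher, by 0.37, 0.89 and 0.44. CD40L gave a log2 fold change of 0.56 (SE 0.09, adjusted p = 0.00117) and LPS one of 0.30 (95% interval 0.10 to 0.49, adjusted p = 0.13). Without the batch term the CD40L value had an adjusted p of 0.078, and without control array 1 the LPS value was called (0.41, adjusted p = 0.0365). CD40L minus LPS was 0.27 (95% interval 0.07 to 0.46, adjusted p = 0.618).

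The second probe set of SPIB, 232739_at, read 8.41, 8.30 and 8.33 on CD40L arrays, 8.19, 8.21 and 8.04 on LPS arrays, and 8.04, 8.003 and 8.15 on control arrays. All CD40L arrays lay above all others. The log2 fold change was 0.28 after CD40L (SE 0.07, adjusted p = 0.0177) and 0.08 after LPS (adjusted p = 0.749). Without batch 1, CD40L array 1, 2 or 3, or control array 1, it was 0.24 to 0.30 and the adjusted p 0.0527 to 0.244. SPI1, the related Ets factor PU.1 with 1 probe set, had group means of 7.17, 7.09 and 7.04 on CD40L, LPS and control arrays. CD40L minus control was 0.12 (95% interval −0.01 to 0.26, adjusted p = 0.389) and LPS minus control 0.05 (95% interval −0.09 to 0.18, adjusted p = 0.891).

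POU2AF1, the octamer coactivator, fell after LPS and not detectably after CD40L. On 205267_at it read 12.22, 12.12 and 12.19 on CD40L arrays, 11.88, 11.71 and 11.82 on LPS arrays, and 12.00, 12.21 and 12.21 on control arrays. All LPS arrays lay below all others, and CD40L and control arrays overlapped. LPS gave a log2 fold change of −0.34 (SE 0.07, adjusted p = 0.0142). It was 0.04 after CD40L (95% interval −0.11 to 0.18, adjusted p = 0.894) and 0.38 for CD40L minus LPS (95% interval 0.23 to 0.52, adjusted p = 0.0189). Within batches 1, 2 and 3 the last was 0.35, 0.41 and 0.37.

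Both calls of POU2AF1 depend on single arrays. The LPS call was lost without batch 2 or 3, LPS array 2 or 3, or control array 3, where the value was −0.33 to −0.26 and the adjusted p 0.0603 to 0.209. The call in CD40L minus LPS was lost without batch 1 or 3, or without any 1 of the 6 CD40L and LPS arrays, where the value was 0.33 to 0.44 and the adjusted p 0.0647 to 0.468. The other probe set of POU2AF1, 1569675_at, lay below the median of the arrays and had changes of 0.01 and 0.01 (adjusted p = 0.964 and 0.99).

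EBF1, an initiator of the B cell programme, was lower after both stimuli. On 229487_at it read 7.37, 7.22 and 7.34 on CD40L arrays, 7.35, 7.16 and 7.36 on LPS arrays, and 7.62, 7.66 and 7.77 on control arrays. Every stimulated array lay below every control array, and CD40L and LPS arrays overlapped. The log2 fold change was −0.37 after CD40L (SE 0.06, adjusted p = 0.00105) and −0.39 after LPS (SE 0.06, adjusted p = 0.00196), with 0.02 between the stimuli (95% interval −0.11 to 0.15). The CD40L call held in all 20 alternatives. Without batch 3 the LPS value was −0.39, with an adjusted p of 0.0684.

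The brightest probe set of EBF1, 227646_at, read 8.69, 8.67 and 8.49 on CD40L arrays, 8.92, 8.61 and 8.60 on LPS arrays, and 9.20, 8.82 and 9.12 on control arrays. LPS array 1 overlapped the control arrays, while the CD40L arrays did not. The log2 fold change was −0.43 after CD40L (SE 0.08, adjusted p = 0.00264) and −0.34 after LPS (SE 0.08, adjusted p = 0.0307). The CD40L call was lost without batch 1 or 3 (−0.40 and −0.33, adjusted p = 0.0658 and 0.0799). The LPS call was lost in 10 of 20 alternatives, among them the removal of batch 1 or 3, any LPS array, control array 1 or 3, or CD40L array 3 (−0.39 to −0.24, adjusted p 0.0591 to 0.332).

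Probe set 232204_at of EBF1 had −0.29 after CD40L (adjusted p = 0.021) and −0.26 after LPS (adjusted p = 0.0727), the second called without control array 2 (−0.34, adjusted p = 0.00402). The first was lost without batch 1 or 3, or CD40L or control array 1 or 3 (−0.30 to −0.19, adjusted p 0.0536 to 0.219). The fourth, 233261_at, lay near the floor with group means of 5.83 on CD40L and LPS arrays and 5.87 on control arrays, and had no call.

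BACH2, the repressor that delays plasma cell differentiation, was lower after CD40L on 1 of 2 probe sets. On 227173_s_at it read 8.77, 8.58 and 8.57 on CD40L arrays, 8.80, 8.65 and 8.65 on LPS arrays, and 8.90, 8.81 and 9.01 on control arrays. No stimulated array reached the control arrays. The log2 fold change was −0.27 after CD40L (SE 0.06, adjusted p = 0.02) and −0.21 after LPS (SE 0.06, adjusted p = 0.139). The CD40L call was lost without batch 3, CD40L array 2 or 3, or control array 3, where the value was −0.28 to −0.18 and the adjusted p 0.0801 to 0.221. It was also lost without the batch term, with batch as a random effect and with only the 2 groups compared (adjusted p 0.0565 to 0.0818). On the brighter 221234_s_at the values were −0.24 after CD40L (95% interval −0.43 to −0.05, adjusted p = 0.163) and −0.28 after LPS (95% interval −0.46 to −0.09, adjusted p = 0.153), and the batch 2 differences were −0.02 and 0.02. Without control array 2 both passed the threshold, at −0.37 and −0.40 (adjusted p = 0.00146 and 0.00113).

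PAX5, the B cell commitment factor, had no call. On 221969_at it read 10.31, 10.46 and 10.02 on CD40L arrays, 10.27, 10.32 and 9.95 on LPS arrays, and 10.18, 9.47 and 9.97 on control arrays. Control array 2 stood apart from the other 8 arrays. The log2 fold change was 0.39 after CD40L (95% interval 0.11 to 0.67, adjusted p = 0.107), made of 0.13, 0.99 and 0.05 in batches 1, 2 and 3. Without control array 3, a fit that keeps control array 2, the value was 0.56 and passed the threshold (adjusted p = 0.0189). Without control array 2 it was not called. After LPS the log2 fold change was 0.31 (95% interval 0.04 to 0.59, adjusted p = 0.339), made of 0.09, 0.86 and −0.01 in batches 1, 2 and 3. The dimmer 206802_at had 0.07 after CD40L (95% interval −0.07 to 0.20) and −0.03 after LPS (95% interval −0.16 to 0.11). The 2 probe sets were uncorrelated over the arrays (−0.01).

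**Figure D3:**
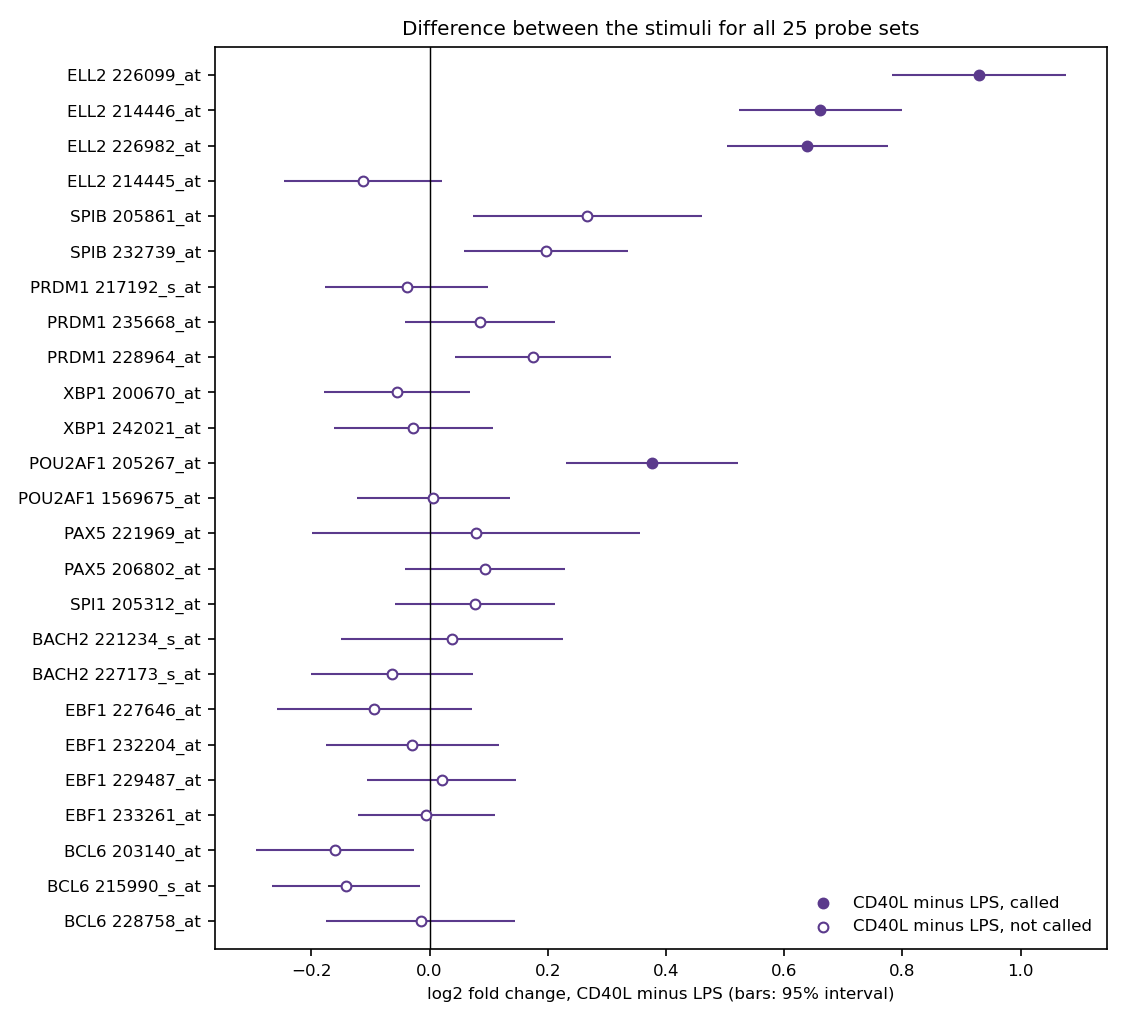
Log2 fold change CD40L minus LPS (horizontal axis) of the 25 probe sets (rows), with bars of the 95% interval and filled points for the 4 called probe sets. The 3 called ELL2 probe sets lie at 0.64 to 0.93 and POU2AF1 205267_at at 0.38, while the interval of BCL6 203140_at reaches up to −0.03.

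The genes that these regulators are known to act with were read from 8 lists, each gene by its brightest probe set. Lists share genes, and all but the corepressor list hold members themselves, so their counts are not independent of the values above. They were also chosen with earlier results of these data known, so a share above that of all genes may partly follow from the choice. Among all 19775 named genes, 5.03% were called higher and 2.92% lower in CD40L minus control, 1.62% and 1.48% in LPS minus control, and 0.491% and 0.152% in CD40L minus LPS. The median log2 fold change of all genes was 0.0051, 0.0018 and 0.0081 in the 3 contrasts. Some listed genes were not analysed here.

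In the germinal centre programme most genes were not called, and most calls were falls. After CD40L 7 of 21 measured genes fell and 1 rose, with a median of −0.02, and after LPS 8 fell and 1 rose, with a median of −0.05. Without BCL6 itself, 6 and 7 of 20 fell. IRF8, an interferon regulatory factor of germinal centre B cells, averaged 10.12 on CD40L arrays and 11.05 on control arrays (log2 fold change −0.92, standard error 0.07, adjusted p = 5.67e-07), and 10.62 on LPS arrays (−0.43, adjusted p = 0.00347). CD38, a surface ectoenzyme, fell by 0.65 on the log2 scale after CD40L (adjusted p = 9.61e-06) and by 0.33 after LPS (adjusted p = 0.0106). IRF8 and CD38 were the 2 genes of this list lower after CD40L than after LPS, by −0.50 (adjusted p = 0.00226) and −0.32 (adjusted p = 0.0411). MYBL1 (A-MYB) fell by 0.62 and 0.56 (adjusted p = 0.000419 and 0.00324). MME (CD10) fell by 0.53 after CD40L (adjusted p = 6.79e-05), and ELMO1, an adaptor of cell migration, by 0.39 after LPS (adjusted p = 0.00192). The gene that rose in both was KLHL6 (0.30 after CD40L and 0.34 after LPS). The CD40L count stayed at 7 lower with any array or batch left out, whereas the LPS count ranged between 0 and 8, with 0 without batch 3. Without the batch term 7 fell after CD40L and 2 after LPS.

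Targets of PAX5 and EBF1 that mark B cell identity moved in both directions. After CD40L 12 of 29 fell and 5 rose (median −0.04), and after LPS 9 fell and 4 rose (median −0.03). Without the 4 members in this list, 11 of 25 fell and 4 rose after CD40L, and 7 fell and 4 rose after LPS. Falls included CD79A, a signalling chain of the B cell receptor (−0.45 after CD40L, adjusted p = 9.41e-05, and −0.38 after LPS, adjusted p = 0.00136), and VPREB3 (−0.59 after CD40L, adjusted p = 1.27e-05). Rises included CIITA, the coactivator of MHC class II genes, with 0.79 after CD40L (adjusted p = 5.32e-07) and 0.40 after LPS (adjusted p = 0.00157). IGLL1, a surrogate light chain, rose by 0.76 and 0.55 (adjusted p = 1.5e-06 and 0.000234). With 1 array or batch left out, 8 to 12 were lower after CD40L and 2 to 10 after LPS, where the fewest calls came without batch 3. Without the batch term 10 fell after CD40L and 4 after LPS.

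In the plasma cell and secretory list, 8 of 35 genes rose and 2 fell after CD40L (median 0.10), and 7 rose and 1 fell after LPS (median 0.09). Those that rose were ELL2, IRF4 and proteins of the endoplasmic reticulum such as chaperones, while 0 of the 6 plasma cell markers were called. HSP90B1 (GRP94) had a log2 fold change of 0.60 after CD40L (SE 0.08, adjusted p = 0.000164) and 0.45 after LPS (adjusted p = 0.00577). HYOU1 had 0.50 after CD40L (adjusted p = 0.000743), and PDIA6, a disulphide isomerase, 0.40 after LPS (adjusted p = 0.00269). EDEM1, which is also an endoplasmic reticulum protein and acts in the degradation of misfolded glycoproteins, fell after CD40L (−0.33, adjusted p = 0.0032, lost without batch 3). CD38, which plasma cells carry at high level, fell after both stimuli. XBP1 and PRDM1 are in this list and their brightest probe sets had no call. After LPS, 8 calls in all became 2 without batch 3, 4 without batch 1, and 5 without LPS array 2 or 3.

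IRF4, which germinal centre exit and plasma cells require, rose under both stimuli. It averaged 10.70 on CD40L arrays, 10.82 on LPS arrays and 10.24 on control arrays. IRF4 rose by 0.46 on the log2 scale after CD40L (SE 0.08, adjusted p = 0.00176) and 0.58 after LPS (SE 0.08, adjusted p = 0.000766), and both held in all 20 alternatives. CD40L minus LPS was −0.12 (adjusted p = 0.999).

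Genes that BCL6 is known to repress changed little as a list. Of 18 measured genes 2 rose and 1 fell after CD40L (median 0.05), and 1 rose and 1 fell after LPS (median 0.05). IRF4 rose as above, and CXCL10, a chemokine, had 0.38 after CD40L (adjusted p = 0.000379). ID2, an inhibitor of DNA binding, moved the other way, with −0.54 after CD40L (adjusted p = 0.000725) and −0.43 after LPS (adjusted p = 0.0104). When each gene was read by its most changed probe set, 6 instead of 3 were called after CD40L, 5 of them higher. Of 17 corepressors and partners of BCL6, 1 rose and 3 fell after CD40L (median 0.0037), and 1 rose and 1 fell after LPS (median −0.00070). With 1 array or batch left out, 0 to 2 rose and 0 to 4 fell after CD40L, with 0 calls without batch 3 and 1 without CD40L array 3. After LPS 0 to 1 rose and 0 to 2 fell, with 0 calls without batch 3, LPS array 1 or LPS array 2. IRF2BP2, a corepressor, had 0.58 and 0.54 (adjusted p = 0.00551 and 0.0208). TBL1X, a subunit of corepressor complexes, had −0.29 and −0.31 (adjusted p = 0.00562 and 0.00987). HDAC7 and MTA3 had −0.26 and −0.24 after CD40L (adjusted p = 0.0275 and 0.0313).

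Among 17 octamer and Ets partners 3 rose and 2 fell after CD40L (median 0.06), and 1 rose and 2 fell after LPS (median 0.01). Beside SPIB, IRF4 and IRF8, GFI1, a zinc finger repressor, rose after CD40L (0.35, adjusted p = 0.00453) and the Ets factor ELF1 fell (−0.27, adjusted p = 0.0127). ETV6, an Ets repressor, was higher after CD40L than after LPS (0.39, adjusted p = 0.0413). Of 9 partners and targets of BACH2, IRF4 was the 1 called after CD40L and after LPS, with medians of 0.02 and 0.05. By the most changed probe set, 4 were called after CD40L, 2 higher and 2 lower.

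Of 18 partners of ELL in transcript elongation, 3 rose and 2 fell after CD40L (median 0.12), and 2 rose and 1 fell after LPS (median 0.05). Beside ELL2, CCNT2, a cyclin of the elongation kinase P-TEFb, had 0.32 after CD40L and 0.35 after LPS (adjusted p = 0.00532 and 0.007), and ICE1 had 0.25 after CD40L (adjusted p = 0.0285). MLLT3 (AF9), of the super elongation complex, had −0.56 and −0.33 (adjusted p = 3.99e-05 and 0.0112). ELL3, a paralogue of ELL2, moved opposite to it after CD40L, with means of 10.67 on CD40L arrays and 11.07 on control arrays (log2 fold change −0.40, adjusted p = 0.00038). Quantile normalisation turned this split to 2 higher and 3 lower after CD40L. In CD40L minus LPS only ELL2 of this list was called (2 genes by the most changed probe set).

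Among the list genes named, the CD40L calls of IRF8, CD38, MYBL1, MME, CD79A, VPREB3, CIITA, IGLL1, HSP90B1, HYOU1, PDIA6, CXCL10, GFI1 and MLLT3 held in every alternative that tested them, as did the LPS calls of CD79A, CIITA and IGLL1. Those of HDAC7 and MTA3 were lost in 11 of 20 alternatives each, and that of ICE1 in 12. The LPS call of IRF8 was lost without batch 3 (adjusted p = 0.073), that of MYBL1 also without LPS array 3, that of HSP90B1 without batch 3 or LPS array 2, and those of CD38, ELMO1, PDIA6, TBL1X and MLLT3 without batch 1 or 3. CD38 and MLLT3 also lost it without control array 1 or LPS array 1 or 2, and TBL1X without any 1 LPS array. After CD40L the call of TBL1X was lost without batch 3 or CD40L array 3 (adjusted p up to 0.0921). KLHL6, IRF2BP2, CCNT2 and ELF1 each lost a call when some arrays were left out (adjusted p up to 0.156, 0.292, 0.144 and 0.148), and ID2 lost its LPS call in 8 of 20 (adjusted p up to 0.328). Without the batch term, ID2 and ELL3 also lost their CD40L calls (adjusted p = 0.0839 and 0.0584). Of the octamer and Ets list 1 gene in place of 3 was called after LPS without batch 3, and of the ELL list 3 in place of 5 after CD40L without batch 1, and 1 in place of 3 after LPS without batch 1 or LPS array 1 or 2. Of the genes that BCL6 represses, 5 in place of 3 were called after CD40L without batch 2 or control array 2 or 3, and 1 in place of 2 after LPS without batch 1 or 3, any LPS array or control array 3. No call of a list gene changed sign. The list genes called in CD40L minus LPS were not put through the alternatives.

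**Figure D4:**
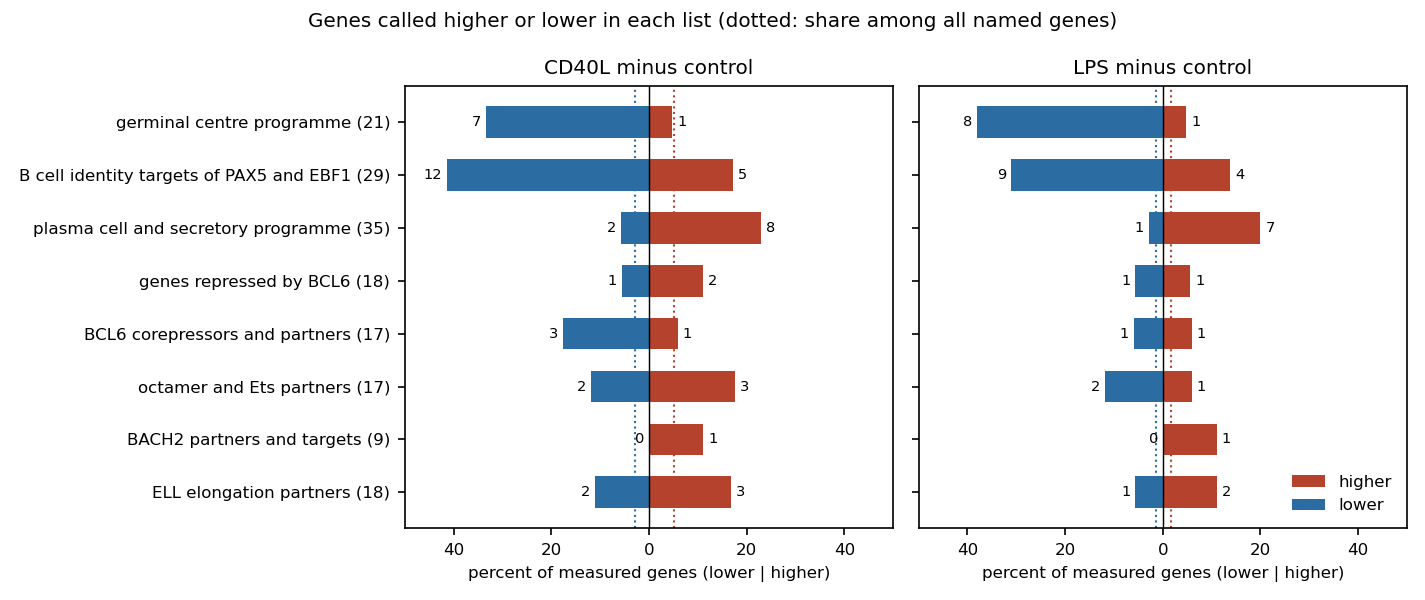
Percent of measured genes (horizontal axis) called higher (red, to the right) or lower (blue, to the left) in each of the 8 lists (rows, number measured in brackets) in CD40L minus control and LPS minus control, with the number of genes at each bar and dotted lines at the share among all named genes. The germinal centre and B cell identity lists extend farthest to the left, with 7 and 12 genes lower after CD40L, and the plasma cell and secretory list to the right, with 8 genes higher.

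The genes whose levels over the 9 arrays were most like those of a called member, after batch means were removed, are given as a description by Pearson's r. A high r does not mean a change of similar size. For BCL6 they were GRAPL (0.993), GLCCI1 (0.993) and PNPLA8 (0.992). GLCCI1 had log2 fold changes of −0.72 after CD40L and −0.51 after LPS, and GRAPL −0.08 and −0.06. For ELL2 they were CDC42SE2 (0.999), CAV1 (0.997) and BTN2A2 (0.997), of which BTN2A2 had 1.25 and 0.49 and CDC42SE2 0.22 and 0.08. For SPIB they were DHX30 (0.999), ITGA4 (0.997) and PREP (0.994), and for EBF1 SYPL1 (0.997), SEMA3F (0.994) and ID2 (0.991). For POU2AF1 they were MATN1-AS1 (0.992), BARX1 (0.977) and CCDC174 (0.9754), which had −0.09, −0.09 and −0.08 after LPS. The 9 points share their batches and conditions, and with so many genes searched the highest values are close to 1.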

How the data were processed

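Total RNA of BL2 cells was hybridised to HG-U133 Plus 2.0 arrays. Per the study's methods, the authors corrected the background, normalised probe intensities with a variance stabilising transformation and summarised probe sets by median polish. As deposited, values have a generalised log2 unit, close to log2 for bright and flatter for dim probe sets, and were used as given; software versions are not given in the sources used here. Of the probe sets, 62 AFFX controls were left out. In the annotation 41097 probe sets carry 1 gene, 1801 several and 11777 none here; symbols were set against the gene table of GRCh38.p14 (0 updated, 54 kept).

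Log2 fold changes, standard errors and two-sided p-values came from limma 3.58.1 (lmFit, eBayes) in R 4.3.3, fitted across all probe sets and 9 arrays with condition and batch as terms, with Benjamini-Hochberg adjustment and a threshold of 0.05 (4 residual and 11.63 prior degrees of freedom). The fit was tested on simulated data. The methods of the study model the batches and the sample titles number them, which pairs arrays by number. Residuals from the condition means had a mean correlation of 0.217 between same-numbered arrays, with 2 of 9 pairs below 0. Both of these pairs held control array 2, at −0.18 with CD40L array 2 and −0.04 with LPS array 2. The remaining pairs lay between 0.18 and 0.47. The fit that took batches as random estimated a within-batch correlation of 0.0724. In batch 2 the control array was thus not seen to pair with its stimulated arrays. An exact permutation test of 3 against 3 arrays cannot go below 0.1 and was not used. The number of arrays limits the precision.

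The members and lists were chosen with earlier results of these data known. Text names all member probe sets, in each list up to 4 called genes with the largest changes, IRF4 in any case, and the 3 most alike genes of each member whose brightest probe set was called. CD79B, CD22, BLK, KLHL6, ELF1, ICE1, the receptors and markers without a call were named after their values were seen. Alternatives were the fit without the batch term, batch as a random effect (statmod 1.5.0), only the 2 groups compared, quantile normalisation, centring on the median, leaving out dim probe sets, eBayes with trend and robust, AFFX kept, and each batch or array left out, 20 in all. For lists, the most changed probe set was tried, and the same 20, the latter chosen after seeing the data.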

Additional observations from a re-analysis of the deposited data

Results flagged for a closer look

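The response to CD40L and to LPS differed, by the fit's own test of CD40L minus LPS, on 4 of the 25 probe sets. For ELL2 the difference was 0.93 on 226099_at (adjusted p = 7.55e-06), 0.66 on 214446_at (adjusted p = 9.06e-05) and 0.64 on 226982_at (adjusted p = 9.83e-05), higher after CD40L in all 3 batches. For POU2AF1 it was 0.38 on 205267_at (adjusted p = 0.0189), with CD40L arrays near control arrays and LPS arrays below both. Of all 54613 probe sets, 164 were higher and 52 lower in this contrast.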

How the results depend on the processing

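Of the 22 calls made on member probe sets over the 3 contrasts, none changed sign in any of the alternatives, and of their 439 repeats 367 kept the call and 72 lost it. Without the replicate block (no batch term), 6 member probe sets were called in CD40L minus control, 4 higher and 2 lower, against 12; the 6 lost were BCL6 215990_s_at, PRDM1 228964_at, BACH2 227173_s_at, SPIB 205861_at, EBF1 227646_at and EBF1 232204_at. Without this pairing, LPS minus control lost BCL6 203140_at and EBF1 227646_at and kept 4 of 6, and CD40L minus LPS lost POU2AF1 205267_at and kept 3 of 4. With batch as a random effect, CD40L minus control lost BCL6 215990_s_at, BACH2 227173_s_at and EBF1 232204_at, and LPS minus control EBF1 227646_at. With only the 2 groups compared, CD40L minus control lost PRDM1 228964_at, BACH2 227173_s_at and EBF1 232204_at, and LPS minus control POU2AF1 205267_at. CD40L minus LPS kept its 4 calls in both settings. Quantile normalisation gave 10 calls in LPS minus control, 2 higher and 8 lower, against 6, adding BCL6 215990_s_at, both BACH2 probe sets and EBF1 232204_at. It also moved the balance over all probe sets, to 1707 higher and 1694 lower after CD40L (2027 and 1022 as deposited) and 775 and 870 after LPS (637 and 487). With 1 batch or array left out, LPS minus control had 1 to 10 calls, with 1 without batch 3, 10 without control array 2, and 3 without LPS array 2, LPS array 3 or control array 3. The ranges were 8 to 13 for CD40L minus control and 3 to 5 for CD40L minus LPS. The cause of these shifts was not tested, and leaving out a batch also leaves 2 arrays a condition. Both probe sets of XBP1 and 1 each of PRDM1, ELL2, EBF1 and POU2AF1 averaged below the median probe set, where a change can stay undetected.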
